A study of Mus musculus with 3 samples.

Results

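Wt1, Cited1, Uncx and Crym are genes of the cap mesenchyme, the nephron progenitor tissue that sits around the branching ureteric tips of the embryonic kidney. They were taken by name: every probe whose platform annotation gave 1 of these symbols was looked up. The names were chosen with earlier results of these data known, so the ranks and shares below are not independent of that choice. The 4 genes had 5 probes, of which 4 carried a value on all 3 arrays and 1, the second Uncx probe, carried none. They are 4 of 3915 genes measured on all 3 arrays. The study sorted cells of embryonic mouse kidneys at 15.5 days post coitum by fluorescence. All kidneys came from HoxB7-GFP transgenic embryos, pooled over both sexes, in which the Hoxb7 promoter drives green fluorescent protein in the ureteric tree. On each array, RNA of GFP+ cells was hybridised with RNA of GFP- cells, which hold every other cell type of the kidney. Nothing in the labels ties the 3 arrays to separate litters or cell pools, and the p-values cover their spread alone, be it technical or not.

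Ratios are given as log2 of GFP+ over GFP-, so that a negative value means less signal in the ureteric fraction. That direction follows the wording of the titles and the channel order and is likely; the dyes are not stated and were not swapped. The ureteric genes Gata3, a transcription factor of the ureteric duct, and Krt8, an epithelial keratin, had positive ratios on every array. They were 2.78, 2.00 and 2.28 for Gata3 and 1.76, 2.21 and 2.26 for Krt8. Of 9 measured genes in a list of ureteric epithelium genes, 1 had a negative mean, Grhl2 (-0.37, -0.27 and 0.12). Of listed genes with values on some arrays only, Wnt7b (-0.61) and Cldn4 (-0.66) were negative on array 2. Cldn4 was positive on array 3 (1.78), and Krt7, Cdh16, Esrp1 and Etv4 had positive values only. Array 1 stood apart from the other two. Across the 3915 genes, which are not independent replicates, its ratios had a Pearson's r of 0.0800 with array 2 and 0.277 with array 3, against 0.883 between arrays 2 and 3. The 4 genes are therefore given by array and also without array 1, and the gene lists are given without it near the end.

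Nephrons arise from a pool of self-renewing mesenchymal cells that cap each ureteric tip. The tip keeps these cells alive and induces part of them to become epithelium, while the cap sends growth signals back to the tip. Wt1 encodes a zinc finger transcription factor needed for survival of the early kidney mesenchyme and later for podocytes, the filtering cells of the glomerulus. Cited1 encodes a transcriptional coactivator that marks the undifferentiated part of the cap. Uncx encodes a paired-type homeodomain protein, and Crym encodes mu-crystallin, a cytosolic protein that binds thyroid hormone and NADPH.

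Promoter sequences were available for 2 of the 4 genes, and they are shown because both genes had low ratios on every array and the letters around a start can be read beside those values. They are RefSeq promoters of the GRCm38.p6 build, 250 bases before to 50 bases after the start. Uncx lies on the plus strand at chr5:139543648-139543947, and capitals mark TAATTA, the core letters bound by many homeodomain proteins. Cited1 has 3 listed starts on the minus strand. The one farthest upstream is shown, at chrX:102252132-102252431, and capitals mark TATAAA, the letters of a TATA box.
Uncx: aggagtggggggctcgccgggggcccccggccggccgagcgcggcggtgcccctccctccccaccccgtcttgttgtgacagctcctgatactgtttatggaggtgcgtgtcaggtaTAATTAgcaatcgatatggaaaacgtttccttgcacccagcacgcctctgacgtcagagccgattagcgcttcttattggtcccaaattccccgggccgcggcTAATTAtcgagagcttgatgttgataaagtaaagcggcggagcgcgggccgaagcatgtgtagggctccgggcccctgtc
Cited1: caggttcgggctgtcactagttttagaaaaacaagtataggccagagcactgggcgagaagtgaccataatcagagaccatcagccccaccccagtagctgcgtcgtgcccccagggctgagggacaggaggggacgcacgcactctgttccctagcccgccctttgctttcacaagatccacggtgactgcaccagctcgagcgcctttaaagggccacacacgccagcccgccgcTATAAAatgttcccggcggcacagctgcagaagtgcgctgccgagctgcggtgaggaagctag

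The Uncx promoter held TAATTA at 2 places, with first bases 133 and 30 bases before the start, and was 60.7% G and C. Of 32851 promoters of this length, 5.29% held TAATTA, which reads the same on both strands. The printed Cited1 promoter, 59.7% G and C, held TATAAA once, 13 bases before its start, as did the second Cited1 start at 115 bases; searched on both strands, 13.6% of promoters held it. The median promoter was 52.7% G and C. GCGNGGGCG, a core shared by EGR factors and WT1, was found in 5.55% of promoters on either strand and in 1 of these 4 start regions, the third Cited1 start (75 bases before it). CTTTGA, the core of TCF and LEF factors, was found in 16.0% of promoters and in none of the 4. None of the places found overlapped another, and a match is a description of the sequence only.

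All 4 genes had negative ratios on all 3 arrays, where 15.3% of the 3915 genes did. Crym, Wt1 and Uncx were lower in the ureteric fraction by limma with Benjamini-Hochberg adjustment over all genes at a threshold of 0.05, and Cited1 lay just outside it. By this rule 1.40% of genes were lower and 1.38% higher. In RNA of sorted pools, fewer cells of a type and less RNA per cell cannot be told apart.

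Crym had the lowest mean, with ratios of -2.40, -1.28 and -1.48 on arrays 1, 2 and 3. Array 1 was lower than the other two by more than 0.9 in log2 units, and no array came near 0. The mean was -1.72 ± 0.59 (SD, n = 3), or 3.30-fold lower, with a limma 95% interval of 2.16-fold to 5.02-fold and an adjusted p of 0.0256. It ranked 23rd from the lowest of all genes by mean, and 8th, 137th and 32nd on arrays 1, 2 and 3. Without array 1 the mean was -1.38 (limma adjusted p = 0.00101). That fit, also used for Wt1 and Uncx below, called 18.8% of all genes lower and 27.5% higher, so its smaller p-values are shared with many genes.

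Wt1 had ratios of -1.85, -1.14 and -1.28, again lowest on array 1. Its mean was -1.42 ± 0.37 (SD, n = 3), a 2.68-fold lower signal, with a limma interval of 1.92-fold to 3.73-fold and an adjusted p of 0.0231. Wt1 ranked 33rd by mean. On single arrays it ranked 23rd, 186th and 49th, so it was nearer the extreme on arrays 1 and 3 than on array 2, whose low tail was broader. Without array 1 it averaged -1.21 (limma adjusted p = 0.00118).

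Uncx was the most even of the 4, with ratios of -1.30, -1.29 and -1.03. Arrays 1 and 2 were almost equal and array 3 was slightly nearer 0. The mean of -1.20 ± 0.15 (SD, n = 3) amounts to 2.30-fold lower, with a limma interval of 1.76-fold to 3.01-fold and an adjusted p of 0.0197, the smallest of the 4 although its mean was not the lowest. It ranked 49th by mean, and its ranks by array were 52nd, 134th and 89th. Without array 1 its mean was -1.16 (limma adjusted p = 0.00185). These values rest on 1 Uncx probe, since the other had no value on any array.

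Cited1 had -1.72 on array 1 and nearly equal values of -0.92 and -0.91 on arrays 2 and 3. It was 2.27-fold lower on average (mean -1.18 ± 0.47, SD, n = 3; limma interval 1.57-fold to 3.28-fold) and ranked 50th, next to Uncx. With a wider spread than Uncx around almost the same mean, it missed the threshold (limma adjusted p = 0.0556). It passed without array 1 (-0.91, adjusted p = 0.00233), without array 2 (-1.31, 0.00126) and without array 3 (-1.32, 0.0367). The share of all genes called lower was 18.8%, 1.79% and 1.30% in these 3 fits, so the call without array 1 is shared with many genes. Of the 50 genes with a mean at or below that of Cited1, 6 were not called, Cited1 among them.

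**Figure D1:**
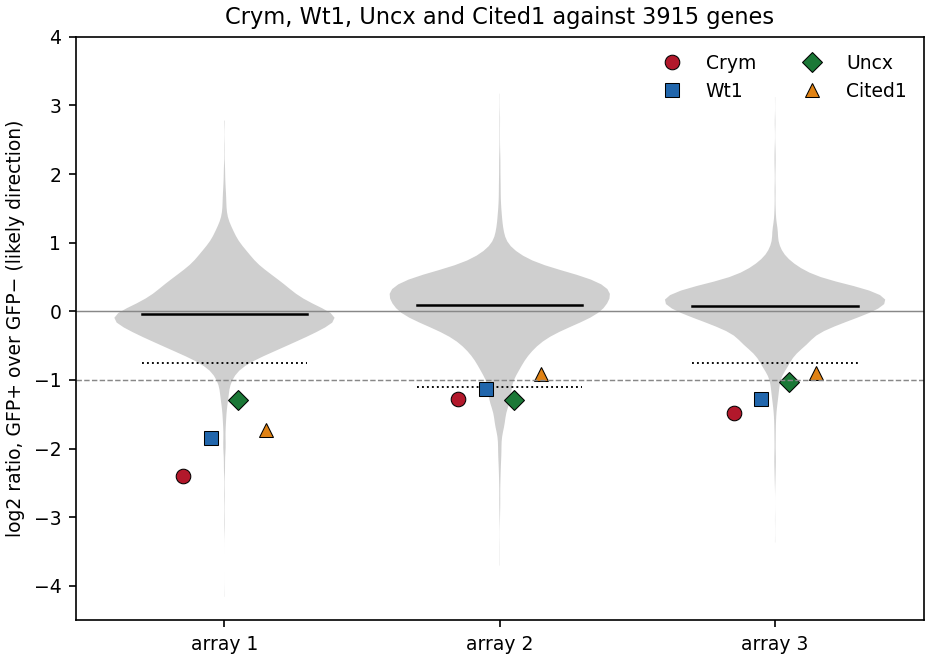
Log2 ratio of GFP+ over GFP- (vertical axis, likely direction) of Crym, Wt1, Uncx and Cited1 on each array, over the distribution of 3915 genes (grey), with the median (solid line), the 5th percentile (dotted line) and a log2 ratio of -1 (dashed line). All 4 genes lie below the 5th percentile on arrays 1 and 3 (-0.76 and -0.75), and 3 of the 4 do on array 2 (-1.11), Cited1 being the exception at -0.92.

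A 2-fold lower signal on every single array was rare. Only 39 genes (0.996%) had a log2 ratio below -1 on all 3 arrays, and 38 of these were called lower. Crym, Wt1 and Uncx were 3 of the 39. Cited1 was outside this set by its values on arrays 2 and 3, and 48 genes were at or below its weakest value, -0.91, on every array. Others in the set included Tcf21, a transcription factor of stroma and podocytes (-2.29, -1.94 and -1.58), and Dcn, a stromal proteoglycan (-1.90, -1.52 and -1.41). The set also held macrophage genes such as Cd52 (-3.07, -2.91 and -2.53) and erythroid genes such as Alas2 (-2.08, -2.22 and -2.15).

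The order by mean was Crym, Wt1, Uncx, Cited1. Over the 6 pairs, per-array differences were compared with an exact two-sided sign-flip permutation test, which cannot go below p = 0.25 with 3 arrays. Crym was lower than Wt1 on all 3 arrays, by 0.55, 0.14 and 0.20 (exact p = 0.25, adjusted 0.5). It was also lower than Cited1 on all 3 arrays, and Wt1 was lower than Cited1 on all 3, with the same p-values. Uncx and Cited1 changed order between arrays, with Uncx 0.43 higher on array 1 and 0.37 and 0.12 lower on arrays 2 and 3 (exact p = 1). Uncx also changed order with Crym on array 2, where the 2 values differed by 0.0035, and with Wt1. With this floor the test could separate no pair, so only the signs by array describe the order.

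The 4 genes differed in how far array 1 departed from the other two. Crym was 1.01 lower on array 1 than the mean of arrays 2 and 3, Cited1 0.81 lower, Wt1 0.64 lower and Uncx 0.14 lower. Over all genes this gap had a median of -0.25 and an SD of 0.68. Only 0.307% of genes had a more negative gap than Crym and 3.78% than Cited1, whereas 15.5% did for Wt1 and 55.5% for Uncx. Without array 1 the means of all 4 were nearer 0 and still negative, from -1.38 for Crym to -0.91 for Cited1.

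**Figure D2:**
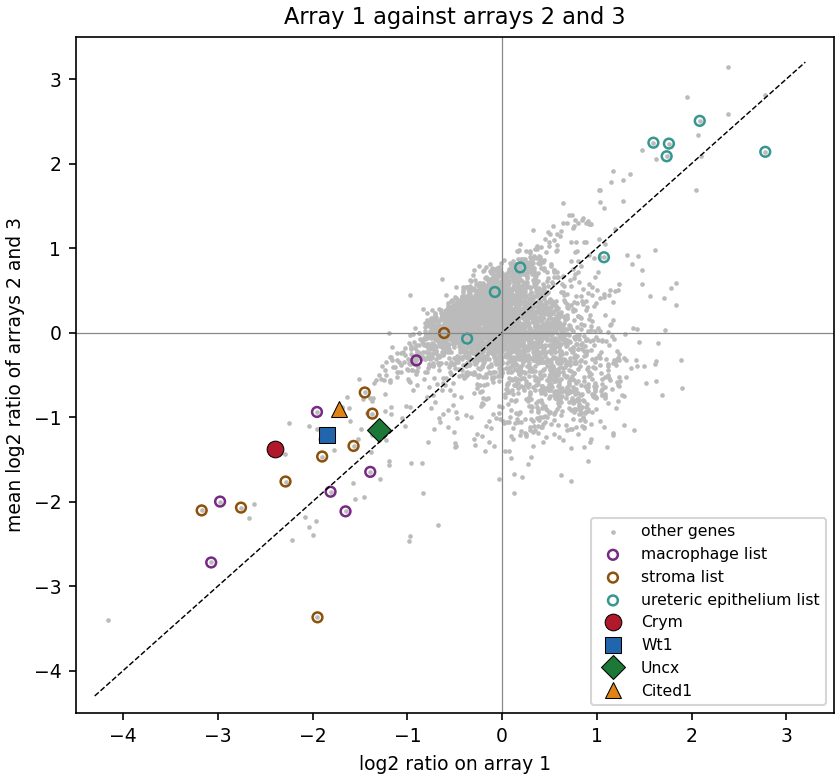
Log2 ratio on array 1 (horizontal axis) against the mean log2 ratio of arrays 2 and 3 (vertical axis) for 3915 genes (grey), with the measured genes of the macrophage, stroma and ureteric epithelium lists as open circles and the 4 cap mesenchyme genes as filled symbols; the dashed line marks equal values. Crym, Wt1 and Cited1 lie to the left of the line, with gaps of -1.01, -0.64 and -0.81, and Uncx lies close to it at -0.14.

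By distance over the 3 arrays, the genes with the most similar ratios were mostly not cap mesenchyme genes. Nearest to Wt1 were Tenm4, a teneurin adhesion protein (-1.93, -1.16 and -1.35; distance 0.11 in log2 units), Adgra2, an adhesion receptor (0.15), and Tpp1, a lysosomal peptidase (0.26). Cited1 was nearest to Fbln1, a matrix fibulin (-1.69, -0.95 and -0.84; 0.084), Hic1, a transcriptional repressor (0.091), and Rspo3, a secreted enhancer of Wnt signalling (0.11). All 3 of these missed the threshold as Cited1 did, with limma adjusted p of 0.0566, 0.0593 and 0.0517. Uncx was nearest to Epdr1, a secreted ependymin-related protein (mean -1.21 ± 0.18, SD, n = 3; 0.047), Sparc, a matrix protein (0.077), and Pla2g7, a secreted phospholipase (0.21). Crym had fewer near genes: Clmp, an adhesion molecule, at 0.13 (-2.29, -1.33 and -1.54), then Lgals1, galectin 1, at 0.48 and Tenm4 at 0.50. Within 0.5 log2 units there were 2 genes for Crym, against 12 for Wt1 and 14 each for Cited1 and Uncx, leaving out clone names. The closest pair among the 4 was Wt1 and Cited1 (0.45), with 9 genes nearer to Wt1 than Cited1 was.

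The other cap mesenchyme genes gave a mixed picture. The list held 38 genes with these 4, of which the array carried 35. Of these, 11 had values on all 3 arrays and 20 had no value at all. Among those without a value were Six2, the transcription factor that keeps progenitors undifferentiated, its partner Eya1, Pax2, and Gdnf, the growth factor that draws out ureteric branches. Their ratios are thus unknown here. Of the 11 measured genes 3 fell and 0 rose, and the median was -0.98 against 0.034 for all genes. Without the 4 genes named above, 0 of the other 7 passed in limma and their median was -0.23. At an unadjusted p below 0.05, 3 of these 7 were lower and 1 higher by limma, and 2 and 1 by an ordinary one-sample statistic. Of all 3915 genes, 251 were lower and 331 higher at that unadjusted limma level.

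Rspo3 (-1.61, -0.90 and -0.88) and Meox1, a homeobox gene (-1.17, -0.58 and -1.19), came closest to the 4. Rspo3 averaged -1.13 ± 0.42 and Meox1 -0.98 ± 0.35 (SD, n = 3), with limma adjusted p of 0.0517 and 0.0634. Both passed without array 1 (0.0025 and 0.0101) and without array 2 (0.00275 and 0.00602), and not without array 3 (0.0586 and 0.545). Hoxa11, a Hox gene of the kidney mesenchyme, was negative on every array (-0.68, -0.22 and -0.49) and did not pass (limma adjusted p = 0.283; 0.0416 without array 1).

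Some progenitor genes were not low. Osr1, an early marker of kidney mesenchyme, had -0.14, 0.41 and 0.25, and the adhesion molecule Ncam1 had -0.10, 0.54 and 0.22; each changed sign between array 1 and the others. Traf1, a signalling adaptor, had -0.49, 0.24 and -0.43. Bmp7, a survival factor made by both the cap and the ureteric tree, was positive on every array at 0.40, 0.79 and 0.94 (mean 0.71 ± 0.28, SD, n = 3; limma adjusted p = 0.135). Without array 1, Osr1, Ncam1 and Bmp7 were called higher (limma adjusted p of 0.0402, 0.0408 and 0.00313), as part of 1078 genes. A further 4 listed genes had values on some arrays only: Gas1 (-0.60 and -0.72) and Tgfb2 (-0.57 and -0.42) on arrays 2 and 3, and Hoxd11 (-0.38) and Sall1 (-0.31) on array 1. All of these values were negative. None entered the fit of genes measured on all 3 arrays, and Gas1 and Tgfb2 did not pass in the limma fit that admitted genes with 2 arrays (adjusted p of 0.243 and 0.383).

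**Figure D3:**
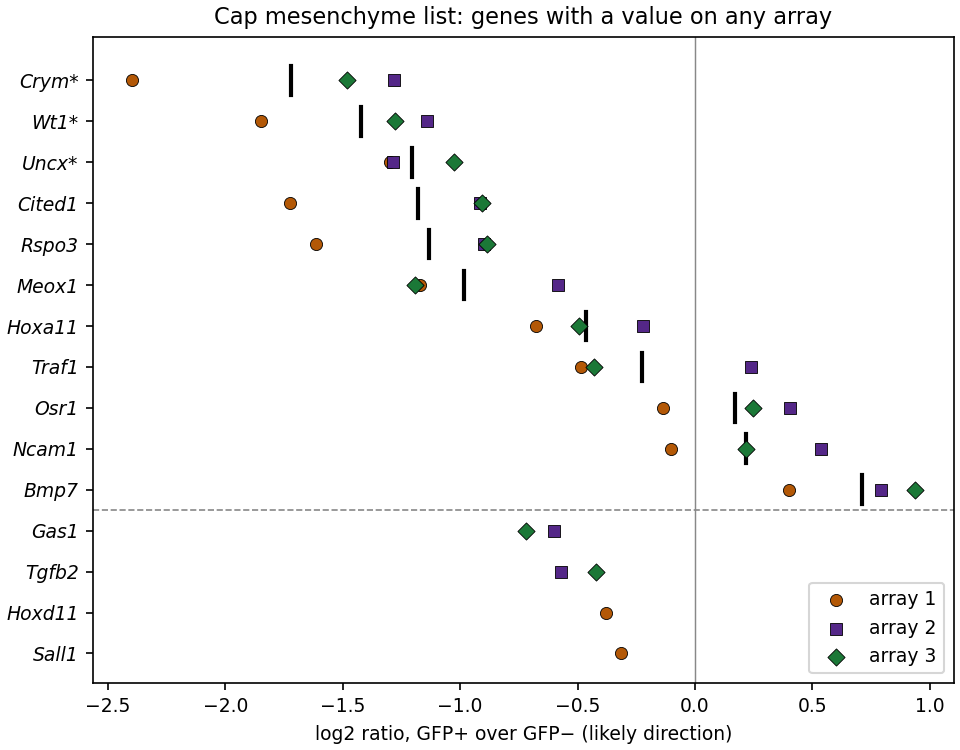
Log2 ratio (horizontal axis, likely direction) on each array for the 15 cap mesenchyme genes with a value, 11 measured on all 3 arrays above the dashed line, with their mean as a black bar, and 4 measured on some arrays below it; an asterisk marks an adjusted p below 0.05. Crym, Wt1, Uncx and Cited1 have the lowest 4 means, and Bmp7 the highest at 0.71.

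Genes tied to each of the 4 by function were mostly not called. For Wt1, a list of 29 reported targets, partners and EGR-family relatives had 7 measured genes, of which 0 fell and 1 rose by limma, with a median of 0.017 (unadjusted, 1 lower and 2 higher by limma, 2 and 3 by the ordinary statistic). The one that rose was Spry1, which dampens receptor tyrosine kinase signals and is also made by ureteric tips (1.07, 0.88 and 0.90; limma adjusted p = 0.0386). Basp1, a WT1 corepressor, had -0.69, -0.70 and -0.52 (limma adjusted p = 0.129). The podocyte protein Podxl (0.017 ± 0.31) and the EGR-family factor Egr2 (-0.0054 ± 0.38) had means near 0 (SD, n = 3). Since Wt1 also marks podocytes, 6 measured podocyte genes of 20 bear on it: Tcf21 and the cell cycle inhibitor Cdkn1c (-1.02, -1.01 and -0.74; limma adjusted p = 0.0435) fell, the ephrin Efnb2 rose (0.79, 0.91 and 1.02; 0.0432), and the list's median was -0.18. Nphs1, a defining podocyte gene, had no value. How far podocytes enter the Wt1 ratio was not tested.

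For Cited1, its family member Cited2, a coactivator of the same family, had 0.024, 0.32 and 0.21 (limma adjusted p = 0.643), on the other side of 0 from Cited1 on each array. Cited4 had 0.26 and 1.19 on arrays 1 and 3 only. Smad2, a signal transducer of the TGF-beta family, averaged -0.0098 ± 0.20 (SD, n = 3). Of 14 genes in this list, Cited1 included, 3 were measured and 0 passed in limma, with Cited1 the 1 at an unadjusted p below 0.05 by either statistic.

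For Uncx, 4 of 27 listed paired, cap and related homeobox and corepressor genes were measured, all with negative means, and Uncx was the 1 that fell. At an unadjusted p below 0.05, 3 of the 4 were lower by limma and 2 by the ordinary statistic. The others were Meox1 and Hoxa11, described above, and Alx4, a paired-type homeobox gene, near 0 at -0.032, -0.11 and -0.099. Hoxa10 (-1.38 and -2.16) and Hoxd10 (-1.50 and -1.37), on arrays 2 and 3 only, were lower than Uncx on both and did not enter the fit of genes measured on all 3 arrays. Both passed in the limma fit that admitted genes with 2 arrays (adjusted p of 0.0378 and 0.0354). That fit tested more than 3915 genes and called 81 lower and 65 higher. The main fit called 55 lower and 54 higher of 3915. Neither Hoxa10 nor Hoxd10 had a value on array 1, so their calls rest on arrays 2 and 3 alone. In the fit of genes measured on all 3 arrays, leaving out array 1 gave 18.8% of all genes lower.

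For Crym, 6 of 23 thyroid hormone genes were measured and Crym was the 1 that fell. At an unadjusted p below 0.05, 2 of the 6, Crym and Ttr, were lower by limma and 1 by the ordinary statistic. Ttr, a carrier of thyroid hormone, had -1.23, -0.34 and -0.66 (limma adjusted p = 0.189), like Crym lowest on array 1. The receptor coactivator Ncoa1 had 0.59, -0.26 and 0.0014. The hormone-responsive factor Klf9 had 0.92, -0.54 and -0.41, opposite in sign on array 1 to Crym. Neither passed. The hormone receptors Thra and Thrb had no value on any array.

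Genes beside the 4 on the chromosome were also looked at. Among the 5 protein-coding genes on each side of the 4, taken in RefSeq order and chosen after the values were seen, 25 of 40 had a probe and 8 had values on all 3 arrays. None of the 8 was called, with limma adjusted p from 0.239 to 0.762. Next to Wt1, the translation factor gene Eif3m had -0.23, -0.81 and -0.60. Next to Cited1, Hdac8, a histone deacetylase, had 0.68, -0.20 and 0.012, and the ribosomal protein gene Rps4x had 0.62, -1.18 and -0.47. No neighbour of Crym was measured on all 3 arrays.

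The GFP- fraction holds many cell types, and markers of several were lower in GFP+ cells to a similar or larger degree. Of 9 measured stroma genes 7 fell (median -1.61; -1.90, -1.52 and -1.41 by array), of 7 macrophage genes 5 fell (median -1.86), and of 3 erythroid genes 2 fell (median -2.15). Tcf21 is counted in both the podocyte and the stroma list. Of 10 early nephron genes, which mark the epithelium formed from the cap, 0 passed in limma (median 0.059; unadjusted, 1 lower and 1 higher by limma, 1 and 2 by the ordinary statistic). The lowest mean among them was that of the Notch target Hey1, with -0.59, -0.64 and -0.44. Of 11 endothelial genes 0 passed in limma (median -0.29; unadjusted, 3 lower by either statistic). Of 9 ureteric epithelium genes 6 rose (median 1.97). Defining stroma genes such as Foxd1 and Pdgfra had no value. Without array 1, where 18.8% of all genes were lower and 27.5% higher, 8 stroma, 6 macrophage and 3 erythroid genes were lower and 8 ureteric genes higher. In that fit 3 early nephron genes were lower and 4 higher, 2 endothelial genes were lower, and the podocyte counts stayed at 2 lower and 1 higher. The Wt1 list then had 1 lower and 3 higher, the Cited1 list 1 lower, and the Uncx and Crym lists 3 lower each. Over all 3 arrays, the 4 cap genes had means from -1.72 to -1.18. The median of the 11 measured cap mesenchyme genes was -0.98 with these 4 and -0.23 for the other 7. The list medians were -1.61 for stroma and -0.29 for endothelium. What these other cell types contribute to the ratios of the 4 genes was not tested.

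**Figure D4:**
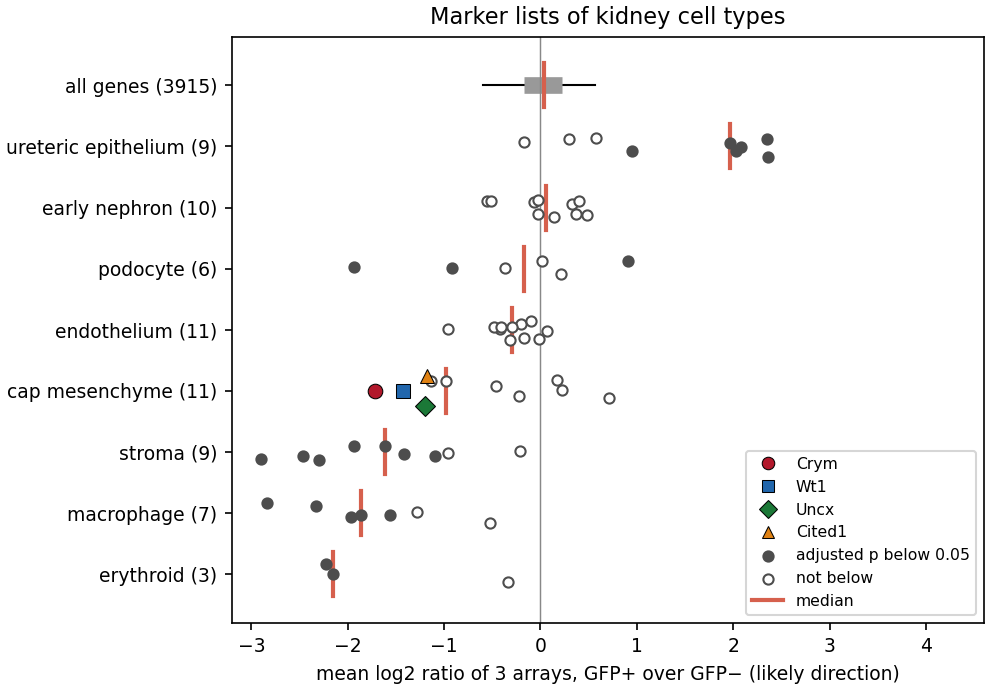
Mean log2 ratio over 3 arrays (horizontal axis, likely direction) of each measured gene in 8 marker lists, filled where the adjusted p was below 0.05, with list medians as red bars and the number of genes in brackets; for all 3915 genes the bar spans the middle 50% and the line the 5th to 95th percentiles. The 4 cap genes, shown as coloured symbols, lie between -1.72 and -1.18, within the range of the stroma list (-2.90 to -0.21).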

How the data were processed

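RNA of GFP+ and GFP- cells was compared on 3 two-colour Mouse Compugen oligonucleotide arrays. Per the labels, the authors read images with Imagene 5.5, fitted a Lowess curve with 20% of points per local fit, adjusted the control channel and raised control values below 10 to 10. The deposited values are log2 ratios, already filtered (rule not given in the sources used here). Their base was settled from the values: 2 raised to the value was a whole number of thousandths (within 0.01) for 99.97% of them. Intensities were not analysed here, so signal over background is unknown, and having only 3 arrays limits precision.

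Of 22702 features, 4402 had a value on all 3 arrays. Annotation gave 17252 probes 1 symbol and 156 several; 16566 were updated through RefSeq gene identifiers (GRCm38.p6), and the rest kept their symbol. Probes of a gene were averaged, giving 3915 genes. A two-sided limma test (version 3.58.1, R 4.3.3, lmFit and eBayes) compared each mean with 0, with Benjamini-Hochberg adjustment. The fit was tested on simulated data whose errors were independent and, for each gene, of 1 size on every array. Array 1 stood apart in the real data, so that test does not cover this departure. The members and the 12 gene lists were chosen with earlier results of these data known. Named are the members, all cap mesenchyme genes with a value, the 3 genes nearest each member, and listed genes of large or called change; neighbours and genes given as having no value were chosen after their values were seen. Alternatives left out each array, centred, scaled or quantile-normalized the arrays, weighted them, averaged arrays 2 and 3, used a robust prior, an ordinary statistic, probes singly, or genes with values on at least 2 arrays.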

Additional observations from a re-analysis of the deposited data

How the results depend on the processing

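Under all 12 alternatives the means of Wt1, Cited1, Uncx and Crym stayed negative. All 4 were negative on every array, so means over fewer, averaged or weighted arrays could not turn positive. The robust prior, the ordinary statistic, single probes and genes with at least 2 arrays left the means unchanged. Leaving out 1 array in turn, they ranged from -1.56 to -1.21 for Wt1, -1.32 to -0.91 for Cited1, -1.29 to -1.16 for Uncx and -1.94 to -1.38 for Crym. With an ordinary statistic, which shares no variance between genes, Wt1 (-1.42), Uncx (-1.20) and Crym (-1.72) missed the threshold (adjusted p of 0.33, 0.245 and 0.385), as did the other cap genes and all 3915 in the lower direction; 0 genes were lower and 1 higher, with 187 lower and 284 higher at an unadjusted p below 0.05, the 4 members among them. Wt1, Uncx and Crym passed under the other 11, whose counts over all genes are given below.

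Cited1 passed the threshold under 10 of the 12, the exceptions being the ordinary statistic (adjusted p = 0.412) and probes tested singly (0.0535). Of these 10 fits, those without array 1 and with array weights called 737 and 861 of 3915 genes lower. The main fit called 55 lower and the rest of the 10 called 51 to 84, so those 2 passes are shared with many genes. Cited1 had its smallest limma adjusted p, 2.86e-05, with array weights. Its mean was -1.22 after median centring, -1.21 scaled, -1.20 quantile-normalized, -0.93 with array weights, -1.32 with arrays 2 and 3 averaged, and -1.18 with a robust prior or with genes measured on at least 2 arrays; its adjusted p ranged from 2.86e-05 to 0.412.

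The 3 cap mesenchyme genes called lower became 6 after centring or quantile normalization, 5 after scaling, with arrays 2 and 3 averaged, with a robust prior or with at least 2 arrays, 7 with array weights, and 0 with the ordinary statistic. Leaving out 1 array gave 4 to 7, and probes tested singly gave 4. Among all genes, 64 were lower after centring or with a robust prior, 79 after scaling, and 57 with arrays 2 and 3 averaged. With at least 2 arrays 81 were lower, and with probes singly 57. The cap counts thus rose alongside the counts over all genes in several settings. Over all genes, 55 lower and 54 higher became 861 and 1309 with array weights (estimated gene by gene, 0.15 for array 1 against 1.55 and 4.30 for arrays 2 and 3, so that array 1 counted little), and 84 lower after quantile normalization; averaging arrays 2 and 3 gave 29 higher. Leaving out 1 array gave 51 to 737 lower and 23 to 1078 higher, the highest counts being without array 1. The cause of these shifts was not tested. Each ratio already pairs the 2 fractions on its array, and the arrays form 1 group, so no further pairing was possible.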
